A study of Mus musculus with 12 samples.

Results

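Alcohol dehydrogenases, aldehyde dehydrogenases and aldo-keto reductases convert alcohols, aldehydes and ketones into one another, and their mRNA was followed in the livers of mice on a fast-food diet (FFD). The members were all genes of the protein-coding type whose symbol began with Adh, Aldh or Akr and a digit, without Akr1d1, a bile acid reductase of another pathway. The rule gave 43 of the 54532 genes counted, with 6 in the Adh family, 21 in the Aldh family and 16 in the Akr family. The rule reads symbols and no measured value, and it was set with earlier results of these data known.

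Total RNA of whole liver was sequenced from male mice homozygous for a floxed PPARγ allele, which had been injected at 8 weeks of age with an adeno-associated virus and then kept on FFD with sugared drinking water for 2 or 5 months. The virus carried Cre recombinase in the group labelled PPARG KO and green fluorescent protein in the wild-type (WT) group. There were 3 libraries per genotype and time, 12 in all. Both genotypes therefore carried the floxed alleles, a virus and the diet, and chow-fed mice are not analysed here. Cre was driven by the thyroxine-binding globulin promoter, which is active in hepatocytes, so the other cells of the liver would keep the gene.

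Cytosolic alcohol dehydrogenases oxidize ethanol, retinol and other alcohols to aldehydes, and aldehyde dehydrogenases carry these on to acids. Some aldehyde dehydrogenases act in ethanol clearance, some make retinoic acid, and others remove fatty aldehydes or belong to amino acid, folate or carnitine metabolism. Aldo-keto reductases work in the other direction and reduce sugars, steroids and reactive carbonyls with NADPH. Hepatocytes are a main site of all 3 families.

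Library totals ran from 16367775 to 27452284 counts, and the members together took 1.21% to 1.44% of them. Wild-type replicate 1 at 2 months and wild-type replicate 1 at 5 months lay farther from the other wild-type libraries than these from each other. Values without them are given where a result turned on them. At 5 months wild-type replicates 2 and 3 were unusually close, with a chi-square per gene of 2.38, where counting error alone gives near 1. Replicate 1 lay at 12.3 and 13.7 from them, beside 8.79 to 15.5 between libraries labelled PPARG KO at that time. Fits without wild-type replicate 1 at 5 months therefore take the wild-type spread from that close pair. Pparg was higher, not lower, in the libraries labelled PPARG KO, at normalized counts (CPM, scaled to library size) of 50.5, 66.5 and 52.1 against 38.8, 41.4 and 37.7 in wild-type at 2 months and at 86.6, 93.0 and 75.1 against 36.9, 41.4 and 37.1 at 5 months (log2 fold change 0.52, adjusted p = 0.0309, and 1.15, adjusted p = 2.57e-06). Counts were made over the whole gene and not over the deleted exons, so these values do not check the deletion, and the directions below are those between libraries as labelled. The summed hepatocyte markers stood at 56570 to 70295 CPM in wild-type and 73606 to 87078 in libraries labelled PPARG KO at 2 months, and at 54166 to 58148 and 72212 to 83804 at 5 months, with 1 of 8 markers higher by the test at the first time and 3 of 8 at the second. Alb made up most of each sum, at 41712 to 48921 and 53702 to 63550 CPM at 2 months. At 5 months Alb stood at 33865 to 38624 and 52212 to 62670 CPM. Of the markers at 5 months, Alb, Tat and Hnf4a were called higher. Ttr and Cps1 lay above 0 and Apoa1, Serpina1c and Cyp2e1 below 0 on the log2 scale, without a call. The part of the hepatocyte markers in the results on the members was not tested. Of the adipocyte markers, Lep was at 0 in all 12 libraries, and Adipoq and Plin1 reached at most 0.0583 and 0.119 CPM. In whole liver, fewer cells of a type and less RNA per cell cannot be told apart.

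Of the 43 members, 31 had enough counts to be tested in every comparison, and Aldh1a3, Aldh1l2 and Aldh3b3 in some of them. The other 9 were Adh6a, Adh6b, Akr1b7, Akr1c18, Akr1c21, Akr1cl, Aldh1a2, Aldh3a1 and Aldh3b2, none of which reached 1 CPM in any library. Levels can be set beside each other only per length, as normalized CPM divided by the gene length in kilobases (RPKM). By that measure Adh1, the main ethanol-oxidizing enzyme of liver, was the most abundant member in wild-type livers at 2 months, at 735 ± 50.1 (SD, n = 3). Akr1c6, a hydroxysteroid dehydrogenase, followed at 407 RPKM, Aldh2, the mitochondrial enzyme that oxidizes acetaldehyde, at 406, and Aldh1a1, a cytosolic retinal dehydrogenase, at 338. Next came Aldh3a2 at 244, Aldh1l1 at 158, Aldh1a7 at 152 and Akr1a1 at 131 RPKM. In libraries labelled PPARG KO at the same time the order of Aldh3a2 and Aldh1l1 was the other way round, at 138 and 232 RPKM. Akr1b3, Akr1b8, Akr1b10, Aldh3b1 and Aldh18a1 lay at the bottom of the members tested in every comparison, with levels from under 1 to a few RPKM.

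**Figure D1:**
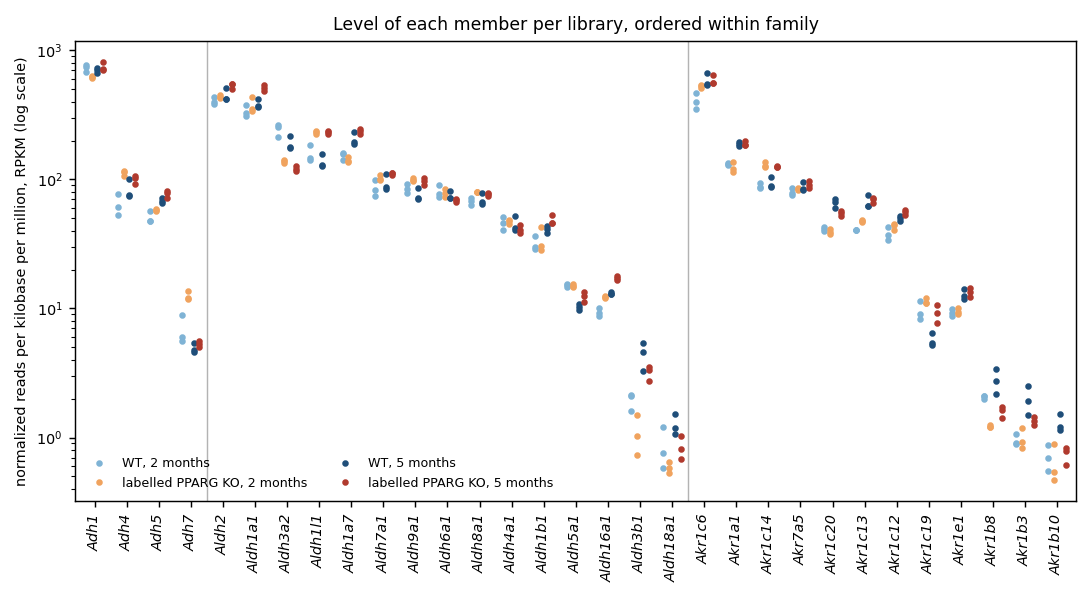
Level of the 31 members tested in every comparison, in RPKM on a log axis, with 1 point per library and members ordered within the Adh, Aldh and Akr families by their wild-type mean at 2 months. Adh1, Akr1c6, Aldh2 and Aldh1a1 lie above 300 in every library, and the Akr1b genes and Aldh18a1 lie below 4.

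At 2 months, 6 of the 32 members tested differed between the genotypes in the test across all genes (edgeR quasi-likelihood F-test, Benjamini-Hochberg adjusted p below 0.05), against 3.56% of all 14573 genes tested (1.78% in each direction). Adh4, Adh7, Aldh1l1, Aldh16a1 and Akr1c14 were higher in libraries labelled PPARG KO, and Aldh3a2 was lower. At 5 months, 13 of 33 members differed, 8 higher and 5 lower, against 18.4% of 14138 genes (8.9% higher and 9.51% lower). When libraries were scaled by their size alone, without TMM factors, the split at 5 months was 6 higher and 6 lower. The median log2 fold change of the members tested was 0.07 at 2 months and 0.10 at 5 months, beside -0.005 and -0.006 over all genes tested. With the replicate numbers as a block, the same 6 members were called at 2 months, and 817 of all genes in place of 519. The labels do not say that libraries of equal number are paired. Values of the libraries did not overlap between genotypes for 13 members at 2 months, where 24.1% of all genes did so, and for 17 at 5 months, where 34.9% did.

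The count of members depended on single libraries. Without wild-type replicate 1, 12 members of 32 differed at 2 months, where 10.6% of all genes did, and 20 of 34 at 5 months, where 21% did, so the calls over all genes rose too. The members gained at 2 months were Adh5, Akr1c6, Akr1c12, Aldh7a1, Aldh8a1 and Aldh9a1, which were then higher, and Adh1, which was then lower, while Adh7 was lost (adjusted p from 0.00194 to 0.0493 for those gained). The members gained at 5 months were Adh4, Adh5, Akr1c12, Aldh1a7, Aldh2, Aldh7a1 and Aldh8a1, then higher, and Aldh3b1, then lower, while Akr1c20 was lost (adjusted p from 0.000373 to 0.0429 for those gained). Leaving out any other library gave 2 or 3 members at 2 months, with 0.788% to 1.59% of all genes called. At 5 months it gave 7 members without wild-type replicate 2 (11% of all genes) or PPARG KO replicate 3 (11.9%), 6 without wild-type replicate 3 (11.1%) and 10 without PPARG KO replicate 1 (15.6%) or 2 (14.5%).

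**Figure D2:**
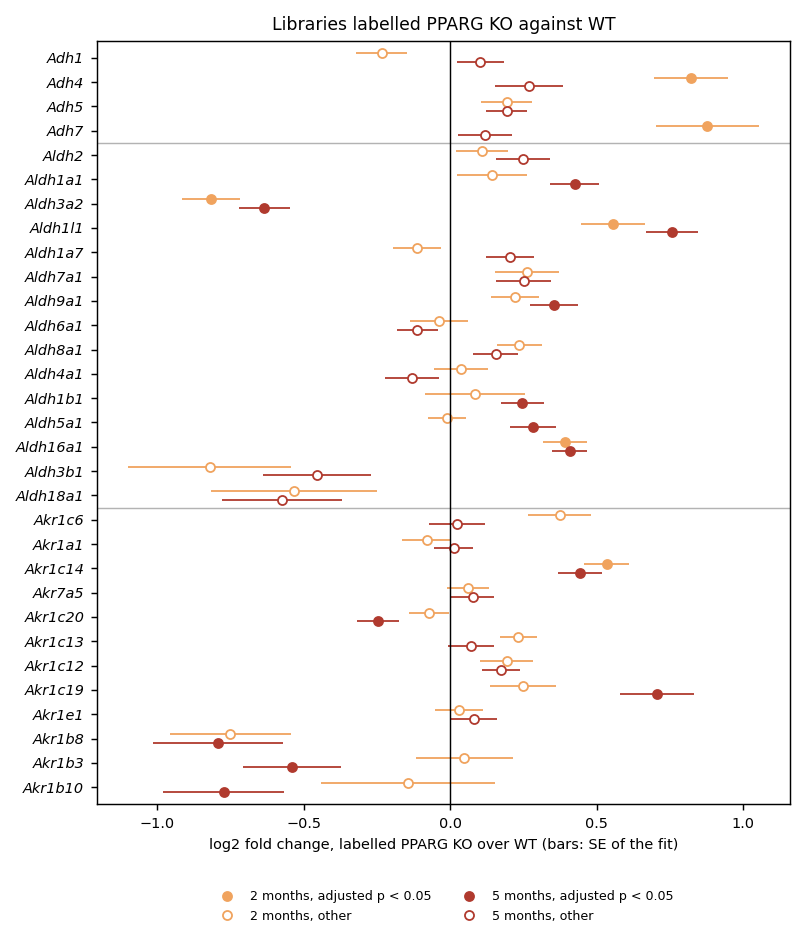
Log2 fold change of libraries labelled PPARG KO over wild-type for the 31 members tested in every comparison, at 2 months (orange) and 5 months (red), by family, with bars for the standard error of the fit and filled points for an adjusted p below 0.05. Aldh3a2 lies at -0.82 and -0.63, and Aldh1l1, Aldh16a1 and Akr1c14 lie to the right of 0 with filled points at both times.

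Of the 31 members tested at both times, 4 passed the test at both (Aldh3a2, Aldh1l1, Aldh16a1 and Akr1c14), each in the same direction, against 2.11% of the 13769 genes tested at both. The comparisons at 2 and 5 months share no library. Since these are the members whose mRNA moved at both times, sequence upstream of their RefSeq start is shown (GRCm38.p6, the same coordinates as mm10), limited to the longest stretch outside annotated exons within 250 bases, which for Aldh16a1 ends 138 and for Akr1c14 51 bases before the start. PPARγ binds DNA with the retinoid X receptor at direct repeats of AGGTCA spaced by a base. Capitals mark AGGTCA, 1 unit of that repeat, or GGGCGG, a GC box, on either strand, and a match is a match of letters and not a measured site.
Aldh3a2, chr11:61267187-61267238, minus strand: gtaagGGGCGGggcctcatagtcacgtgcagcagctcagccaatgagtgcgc
Aldh1l1, chr6:90550543-90550788, plus strand: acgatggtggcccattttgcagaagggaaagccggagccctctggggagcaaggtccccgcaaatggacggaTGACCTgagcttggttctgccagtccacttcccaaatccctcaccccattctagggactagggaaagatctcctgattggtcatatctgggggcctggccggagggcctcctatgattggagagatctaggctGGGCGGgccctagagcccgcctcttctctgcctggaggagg
Aldh16a1, chr7:45154674-45154786, minus strand: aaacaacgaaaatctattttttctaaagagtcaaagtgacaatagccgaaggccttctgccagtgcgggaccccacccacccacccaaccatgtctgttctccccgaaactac
Akr1c14, chr13:4059341-4059540, plus strand: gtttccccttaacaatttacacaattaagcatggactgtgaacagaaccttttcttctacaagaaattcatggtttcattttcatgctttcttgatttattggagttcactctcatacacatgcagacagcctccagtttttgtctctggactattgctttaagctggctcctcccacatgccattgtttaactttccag
In the count files (mm10), Aldh3a2 (ENSMUSG00000010025) spans chr11:61223417-61267464, Aldh1l1 (ENSMUSG00000030088) chr6:90486427-90600203, Aldh16a1 (ENSMUSG00000007833) chr7:45140684-45154584 and Akr1c14 (ENSMUSG00000033715) chr13:4049011-4090688. The starts of all 4 genes used here lie inside the gene spans given in the count files, and 198 of the 250 bases upstream of Aldh3a2 were annotated as exon. The sequence of Aldh1l1 held 1 AGGTCA and 1 GGGCGG, that of Aldh3a2 1 GGGCGG, and those of Aldh16a1 and Akr1c14 neither in the stretch printed. In the part nearer the start that is not printed, Aldh16a1 held 4 GGGCGG, starting 125, 44, 25 and 17 bases before its start, and Akr1c14 neither motif.

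Over the 34 members with a RefSeq start, AGGTCANAGGTCA, searched on both strands, was in the 250 bases upstream of none, and it was in 0.0335% of all 32851 windows of that length. AGGTCA, which is also part of the longer repeat, was upstream of 7 members (Adh4, Akr1b7, Akr1b10, Akr7a5, Aldh1l1, Aldh3b1 and Aldh6a1) and in 14% of all windows. GGGCGG was upstream of 11 members and in 32.7% of windows, and TATAAA upstream of 6 and in 12.4%. Adh4 had AGGTCA starting 133 and 11 bases before its RefSeq start. The match at 11 lies within annotated exon, which took the last 31 bases of that window. These windows are short, some hold annotated exon bases, and sequence further away was not searched.

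Among the alcohol dehydrogenases, which lie side by side on chromosome 3, Adh4 and Adh7 were higher at 2 months and neither passed the test at 5 months. Adh4, a liver enzyme for longer alcohols and retinol, stood at 112, 76.3 and 88.2 CPM in wild-type and 168, 165 and 155 CPM in libraries labelled PPARG KO at 2 months. The groups did not overlap, and Adh4 was 1.77-fold higher (log2 fold change 0.82 ± 0.13 (SE), adjusted p = 0.0148). At 5 months the values were 147, 109.9 and 108 and 154, 133 and 148 CPM and overlapped (log2 fold change 0.27 ± 0.12 (SE), adjusted p = 0.153). The call at 2 months was lost without wild-type replicate 3 (adjusted p = 0.0667) or PPARG KO replicate 1 (adjusted p = 0.0629). Without wild-type replicate 1 at 5 months, Adh4 was higher at that time too, by 0.43 on the log2 scale (adjusted p = 0.000767).

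Adh7, a retinol- and ethanol-oxidizing enzyme known best from the stomach lining, was expressed at a far lower level per length. Its libraries read 22.6, 21.1 and 33.9 CPM in wild-type and 45.5, 45.2 and 51.9 CPM in those labelled PPARG KO at 2 months, without overlap (log2 fold change 0.88 ± 0.18 (SE), adjusted p = 0.0408). At 5 months all 6 libraries lay together, at 17.4, 20.4 and 18.02 CPM and 21.3, 18.9 and 19.96 CPM (log2 fold change 0.12 ± 0.09 (SE), adjusted p = 0.436). The call at 2 months held without wild-type replicate 3, the highest of its group, and was lost when any other library was left out (adjusted p from 0.0854 to 0.125).

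Adh1 was at 1516, 1733 and 1674 CPM in wild-type and 1376, 1401 and 1413 CPM in libraries labelled PPARG KO at 2 months. The latter lay below the former without overlap, but the difference did not pass the test (log2 fold change -0.23 ± 0.09 (SE), adjusted p = 0.185), and it did so only without wild-type replicate 1 (log2 fold change -0.29, adjusted p = 0.0178). At 5 months the values were 1632, 1567 and 1502 and 1577, 1826 and 1609 CPM, with a 95% interval of the log2 difference of -0.05 to 0.26. Adh5, the glutathione-dependent formaldehyde dehydrogenase, read 306, 255 and 259 CPM against 306, 314 and 319 CPM at 2 months and 385, 366 and 358 CPM against 439, 428 and 391 CPM at 5 months. The libraries labelled PPARG KO were higher without overlap at 5 months, short of the threshold (log2 fold change 0.19 ± 0.07 (SE), adjusted p = 0.0711).

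Aldh3a2, the fatty aldehyde dehydrogenase that oxidizes long-chain aldehydes from ether lipids and sphingolipids, was the member that fell at both times. It read 1194, 1484 and 1428 CPM in wild-type and 801, 751 and 781 CPM in libraries labelled PPARG KO at 2 months, 1.76-fold lower (log2 fold change -0.82 ± 0.10 (SE), adjusted p = 0.00402). At 5 months it read 1210.3, 978 and 998 CPM and 712, 672 and 653 CPM, 1.55-fold lower (log2 fold change -0.63 ± 0.09 (SE), adjusted p = 0.000297). Every library labelled PPARG KO lay below every wild-type library of its own time, and both calls held under all 14 alternatives. No exon of another gene overlapped Aldh3a2, and none of its 100-base stretches occurred in another gene's transcripts.

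Aldh1l1, the cytosolic 10-formyltetrahydrofolate dehydrogenase of folate metabolism, moved the opposite way. Its wild-type libraries read 834, 663 and 639 CPM and those labelled PPARG KO 1012, 1078 and 1049 CPM at 2 months (log2 fold change 0.56 ± 0.11 (SE), adjusted p = 0.0256). At 5 months the values were 714, 580.4 and 579 CPM and 1009.6, 1081 and 1052 CPM (log2 fold change 0.76 ± 0.09 (SE), adjusted p = 8.5e-05). The groups did not overlap at either time, and the difference was 1.47-fold and 1.69-fold. At 2 months the call was lost without wild-type replicate 2 or 3 or any single PPARG KO replicate (adjusted p from 0.0832 to 0.116), and at 5 months it held under every alternative. Of its exon bases, 11.1% overlap Gm15756 on the opposite strand, whose reads cannot be told apart if counting ignored strand.

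Aldh16a1, a member whose mammalian protein lacks the catalytic cysteine, rose at both times from a lower level. It read 57.00, 49.4 and 51.8 CPM against 67.3, 70.9 and 69.4 CPM at 2 months (log2 fold change 0.39 ± 0.07 (SE), adjusted p = 0.0223) and 72.5, 74.9 and 73.3 CPM against 97.2, 100.03 and 93.3 CPM at 5 months (log2 fold change 0.41 ± 0.06 (SE), adjusted p = 0.000483). The genotypes did not overlap at either time and differed by 1.31-fold and 1.33-fold. The call at 2 months was lost without wild-type replicate 2 or 3 or any single PPARG KO replicate (adjusted p from 0.0738 to 0.100), and the one at 5 months was not.

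Of the retinal and acetaldehyde dehydrogenases, Aldh1a1 and Aldh1b1 were higher in libraries labelled PPARG KO at 5 months, and none was called at 2 months. Aldh1a1 read 1542, 1849 and 1608 CPM in wild-type and 1720.1, 2136 and 1663 CPM in libraries labelled PPARG KO at 2 months, which overlapped (log2 fold change 0.14 ± 0.12 (SE), adjusted p = 0.575). At 5 months it read 2069, 1825 and 1791 CPM and 2391, 2647 and 2536 CPM, 1.34-fold higher without overlap (log2 fold change 0.42 ± 0.08 (SE), adjusted p = 0.0033), and this call held under all alternatives. Aldh1a7, its close relative in the neighbouring gene, read 292, 331 and 323 and 286, 309 and 280.2 CPM at 2 months and 482, 405 and 391 and 467, 505 and 489 CPM at 5 months, and passed the test at neither time (adjusted p = 0.512 and 0.107), though it did at 5 months without wild-type replicate 1 (adjusted p = 0.00272). The pair shared under 0.1% of their 100-base stretches.

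Aldh2 read 2221, 1982 and 2038 CPM in wild-type and 2192, 2323 and 2214 CPM in libraries labelled PPARG KO at 2 months (log2 fold change 0.11 ± 0.09 (SE), adjusted p = 0.567). At 5 months it read 2637, 2151 and 2166 CPM and 2594, 2812 and 2799 CPM, where wild-type replicate 1 lay within the other genotype's range (log2 fold change 0.25 ± 0.09 (SE), adjusted p = 0.079). Without that library Aldh2 passed the test at 5 months, at 0.35 on the log2 scale (adjusted p = 0.00145), as it did with all libraries in DESeq2 (adjusted p = 0.0245). Aldh1b1, a second mitochondrial acetaldehyde dehydrogenase, read 66.1, 84.1 and 68.3 and 64.8, 97.6 and 69.8 CPM at 2 months and 99.8, 88.2 and 95.5 and 106, 122 and 106 CPM at 5 months, where it was higher (log2 fold change 0.25 ± 0.07 (SE), adjusted p = 0.0351). That call was lost under 8 of 14 alternatives, among them leaving out wild-type replicate 2 or 3 or PPARG KO replicate 2 or 3 (adjusted p from 0.0514 to 0.164).

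The aldehyde dehydrogenases of amino acid and carnitine metabolism were represented by Aldh4a1, Aldh5a1, Aldh6a1, Aldh7a1, Aldh8a1, Aldh9a1 and Aldh18a1. Aldh9a1, which acts in carnitine synthesis, read 314, 284 and 268 CPM against 334, 327 and 348 CPM at 2 months, without overlap (log2 fold change 0.22 ± 0.08 (SE), adjusted p = 0.179), and 290.5, 238 and 243 CPM against 308, 328 and 344 CPM at 5 months, where it passed the test (log2 fold change 0.35 ± 0.08 (SE), adjusted p = 0.00904). The call was lost without wild-type replicate 2 (adjusted p = 0.0573) or 3 (adjusted p = 0.0536). Aldh5a1, the succinic semialdehyde dehydrogenase of GABA breakdown, was level at 2 months with 85.9, 87.1 and 82.2 CPM in wild-type and 82.7, 83.98 and 86.7 CPM in the other genotype. At 5 months it read 61.4, 54.9 and 57.99 CPM and 63.3, 76.4 and 70.7 CPM, higher in libraries labelled PPARG KO (log2 fold change 0.28 ± 0.08 (SE), adjusted p = 0.0231). This call was lost without wild-type replicate 2 or 3 or PPARG KO replicate 2 or 3 (adjusted p from 0.0687 to 0.109) and with library size alone (adjusted p = 0.0586).

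Aldh4a1, of proline breakdown, read 253, 224 and 199.5 and 222, 236 and 238 CPM at 2 months and 257, 207 and 200.1 and 188, 216 and 197 CPM at 5 months, with no call between genotypes. Of its 100-base stretches 27.5% also occur in Gm21969, so its level is uncertain. Aldh6a1, the methylmalonate semialdehyde dehydrogenase of valine breakdown, read 526, 426 and 447 and 426, 453 and 484 CPM at 2 months and 469.5, 416 and 419 and 385, 411 and 403 CPM at 5 months, likewise uncalled. Of the 100-base stretches of Aldh6a1, 13.4% also occur in Bbof1. Aldh7a1 of lysine breakdown, Aldh8a1 of tryptophan breakdown and Aldh18a1 of proline synthesis passed the test in none of the comparisons between genotypes or times, at 389 to 584, 279 to 352 and 2.18 to 6.16 CPM over the 12 libraries. Aldh18a1 was lower at 5 months without PPARG KO replicate 2 (adjusted p = 0.0455). Without wild-type replicate 1, Aldh7a1 and Aldh8a1 were higher in libraries labelled PPARG KO at both times, by 0.39 (adjusted p = 0.00759) and 0.29 (adjusted p = 0.0192) on the log2 scale at 2 months and by 0.38 (adjusted p = 0.000373) and 0.24 (adjusted p = 0.00769) at 5 months.

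**Figure D3:**
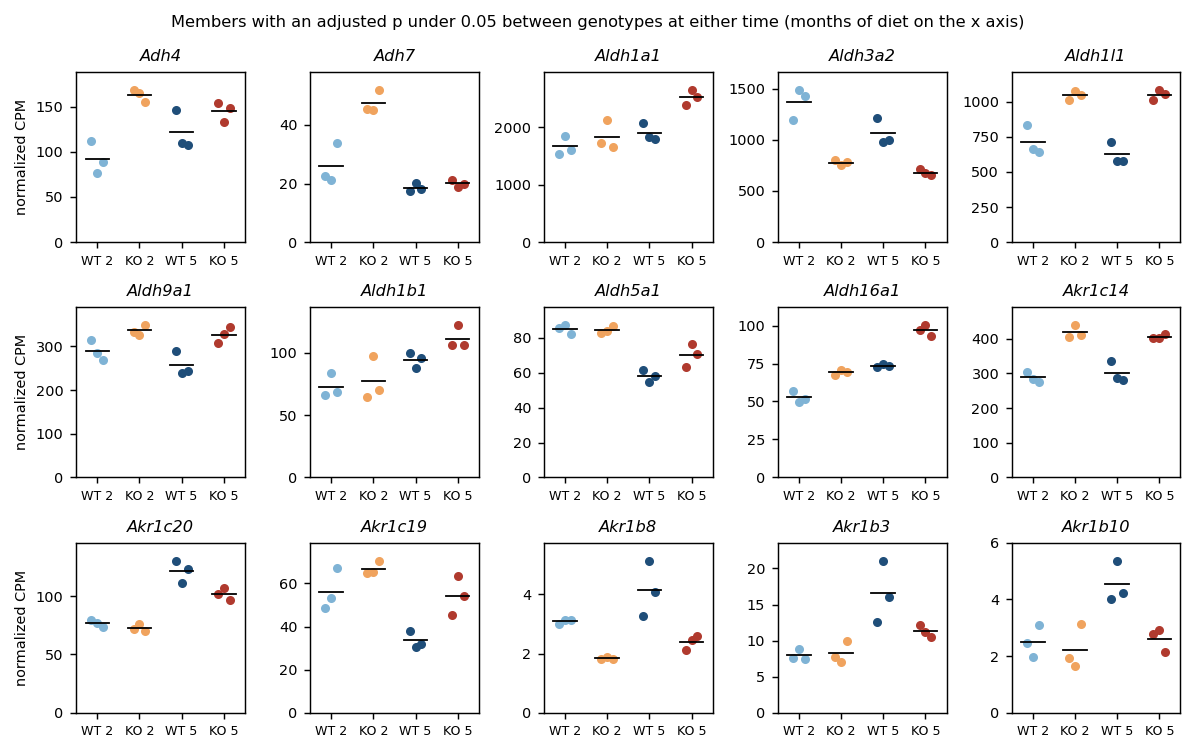
Normalized CPM in each of the 12 libraries for the 15 members with an adjusted p below 0.05 between genotypes at 2 or 5 months, with a line at each group mean and axes from 0. Aldh3a2 is lower and Aldh1l1, Aldh16a1 and Akr1c14 are higher in libraries labelled PPARG KO at both times without overlap, and Adh4 and Adh7 are higher without overlap at 2 months.

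Among the aldo-keto reductases, Akr1c14, which reduces 3-ketosteroids, rose at both times. It read 305, 285 and 276 CPM in wild-type and 405, 438 and 412 CPM in libraries labelled PPARG KO at 2 months, 1.45-fold higher (log2 fold change 0.53 ± 0.08 (SE), adjusted p = 0.00834). At 5 months it read 335, 286 and 281 CPM and 401, 403 and 414 CPM, 1.36-fold higher (log2 fold change 0.44 ± 0.08 (SE), adjusted p = 0.00127). The genotypes did not overlap at either time. The call at 2 months was lost without wild-type replicate 3 (adjusted p = 0.0522), and of its 100-base stretches 4.3% occur in the pseudogene Gm18857.

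The other Akr1c genes lie in the same cluster on chromosome 13 and differed in direction. Akr1c19 read 48.4, 53.01 and 67.2 CPM against 64.6, 65.3 and 70.5 CPM at 2 months, which overlapped, and 37.9, 30.6 and 32.1 CPM against 45.4, 63.3 and 54.2 CPM at 5 months, 1.63-fold higher (log2 fold change 0.71 ± 0.13 (SE), adjusted p = 0.00436), a call that held under all alternatives. Akr1c20, of the same cluster, went the other way at 5 months, with 130.4, 111 and 124 CPM in wild-type and 102, 107 and 96.6 CPM in libraries labelled PPARG KO (log2 fold change -0.25 ± 0.07 (SE), adjusted p = 0.0296), after 79.2, 77.1 and 73.7 and 72.3, 76.5 and 70.3 CPM at 2 months. This small difference was lost without wild-type replicate 1 or 3 or PPARG KO replicate 1 or 3 (adjusted p from 0.0563 to 0.127).

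Akr1c6, the most abundant member of the cluster, read 955, 719.7 and 807 CPM against 1100.02, 1074 and 1042 CPM at 2 months. The groups did not overlap and the difference missed the threshold (log2 fold change 0.37 ± 0.11 (SE), adjusted p = 0.0938), and it passed in DESeq2 (adjusted p = 0.0227) and without wild-type replicate 1 (adjusted p = 0.00194). At 5 months the values were 1357, 1116 and 1092 and 1137, 1319 and 1141 CPM, with a 95% interval of -0.16 to 0.21 for the log2 difference. Akr1c12 read 53.7, 43.1 and 46.8 and 56.6, 51.3 and 56.2 CPM at 2 months and 65.8, 59.9 and 63.1 and 67.3, 71.2 and 72.8 CPM at 5 months. Akr1c13 read 58.4, 57.7 and 58.2 and 68.4, 68.97 and 67.6 CPM at 2 months and 108, 89.9 and 89.1 and 94.8, 102 and 103 CPM at 5 months. Neither was called between genotypes, and since they share 134 of their 100-base stretches the division of reads between them is uncertain.

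The Akr1b genes were the low members of the family, and Akr1b3, Akr1b8 and Akr1b10 were lower in libraries labelled PPARG KO at 5 months. Single libraries held from 29 to 92 counts of Akr1b10 and 33 to 88 of Akr1b8. Akr1b3, aldose reductase, the first enzyme of the sorbitol pathway, read 7.64, 8.86 and 7.46 CPM and 7.72, 7.02 and 9.94 CPM at 2 months and 12.5, 21.1 and 16.1 CPM and 12.1, 11.2 and 10.5 CPM at 5 months (log2 fold change -0.54 ± 0.17 (SE), adjusted p = 0.0465). Akr1b8 read 3.00, 3.14 and 3.15 CPM and 1.81, 1.88 and 1.83 CPM at 2 months, without overlap but short of the threshold (log2 fold change -0.75 ± 0.21 (SE), adjusted p = 0.0789), and 3.26, 5.13 and 4.07 CPM and 2.13, 2.46 and 2.59 CPM at 5 months (log2 fold change -0.79 ± 0.22 (SE), adjusted p = 0.0254). Akr1b10 read 2.46, 1.96 and 3.10 CPM and 1.92, 1.65 and 3.13 CPM at 2 months and 4.03, 5.37 and 4.23 CPM and 2.79, 2.92 and 2.15 CPM at 5 months (log2 fold change -0.77 ± 0.21 (SE), adjusted p = 0.0199). At 5 months no library labelled PPARG KO reached the lowest wild-type library for any of the 3 genes.

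Each of these calls was lost when certain single libraries were left out, and the calls over all genes also fell in those fits. Akr1b3 and Akr1b8 were lost without wild-type replicate 2 or 3 or any single PPARG KO replicate (adjusted p from 0.0731 to 0.166 and from 0.0557 to 0.142), and Akr1b10 without wild-type replicate 2 (adjusted p = 0.112), wild-type replicate 3 (adjusted p = 0.0504) or PPARG KO replicate 3 (adjusted p = 0.0836). All 6 macrophage markers were lower in libraries labelled PPARG KO at 5 months, with a summed level of 509 to 569 CPM in wild-type and 263 to 332 CPM in the other genotype, and none of the 6 differed at 2 months, at 253 to 310 and 296 to 328 CPM. The summed stellate cell and fibroblast markers stood at 693 to 837 CPM in wild-type and 544 to 611 CPM in the other genotype at 5 months, with 4 of 8 lower, and at 613 to 759 and 461 to 473 CPM at 2 months, with 1 of 8 lower. The part of these cells in the values of the Akr1b genes and of Aldh3b1 was not tested. Aldh3b1, which oxidizes lipid-derived aldehydes at membranes, was low as well and read 3.00, 3.92 and 4.01 CPM against 1.92, 1.37 and 2.79 CPM at 2 months and 6.11, 8.69 and 10.1 CPM against 6.61, 6.26 and 5.12 CPM at 5 months. It passed the test at neither time (adjusted p = 0.143 and 0.11), and did so at 5 months without wild-type replicate 1 (log2 fold change -0.63, adjusted p = 0.0112) and, with no filter on low counts, at both times (adjusted p = 0.0445 and 0.0393).

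**Figure D4:**
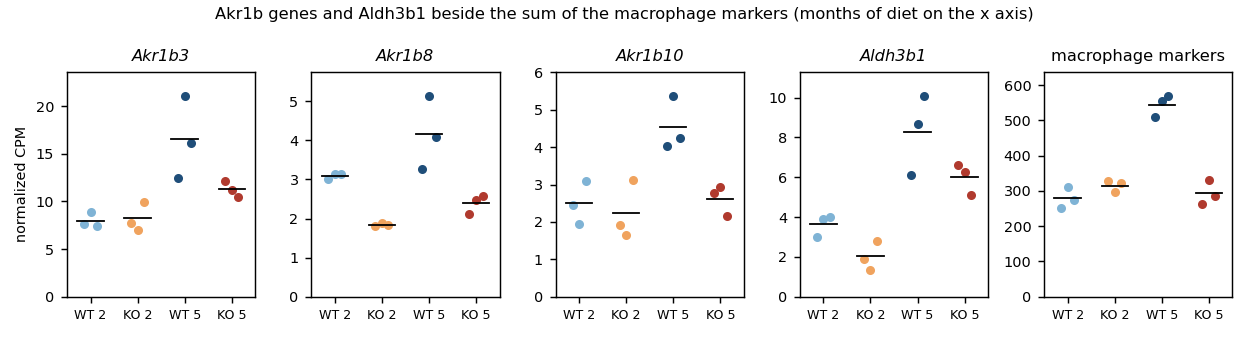
Normalized CPM of Akr1b3, Akr1b8, Akr1b10 and Aldh3b1 and the sum of 6 macrophage markers in each of the 12 libraries, with a line at each group mean and axes from 0. The marker sum is 509 to 569 CPM in wild-type at 5 months and 253 to 332 CPM in the other 9 libraries.

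The remaining reductases did not pass the test between genotypes. Akr1a1, the aldehyde reductase that also serves ascorbate synthesis in mice, read 356, 366 and 359.6 CPM and 333, 374 and 316 CPM at 2 months and 539, 520.3 and 504 CPM and 508, 546 and 511 CPM at 5 months, with 95% intervals of the log2 difference of -0.24 to 0.08 and -0.12 to 0.14. Akr1e1, which reduces 1,5-anhydrofructose, read 32.00, 36.1 and 33.4 and 34.03, 33.03 and 36.6 CPM at 2 months and 51.3, 45.1 and 43.2 and 52.4, 48.9 and 44.96 CPM at 5 months, with intervals of -0.13 to 0.19 and -0.08 to 0.24. Akr7a5, an aldehyde reductase for succinic semialdehyde and aflatoxin dialdehyde, lay at 136 to 175 CPM and was called in no comparison.

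Between 2 and 5 months of diet, 16 of 33 members differed in wild-type livers, 13 higher and 3 lower, against 46.4% of 14491 genes (23.8% higher and 22.7% lower). In libraries labelled PPARG KO, 20 of 32 members differed, 14 higher and 6 lower, against 44.9% of 14478 genes (22.7% and 22.2%). The median log2 change over the members was 0.38 in wild-type and 0.23 in the other genotype, beside -0.013 and -0.011 over all genes tested. How the animals and libraries of the 2 times were handled is not stated, and duration of diet, age and any difference in handling cannot be told apart. These comparisons use the same libraries as those between genotypes.

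Aldo-keto reductases were 8 of the 13 members that rose in wild-type and 6 of the 14 that rose in libraries labelled PPARG KO. In wild-type, 8 of 12 Akr genes tested were higher at 5 months and 1 was lower, with a median log2 change of 0.49, and in the libraries labelled PPARG KO 6 were higher and 1 lower (median 0.37). Akr1a1 rose 1.44-fold in wild-type (log2 fold change 0.53 ± 0.08 (SE), adjusted p = 0.000317) and 1.53-fold in the other genotype (log2 fold change 0.61 ± 0.07 (SE), adjusted p = 6.11e-05). Akr1c13 rose by 0.72 and 0.55 on the log2 scale, Akr1c20 by 0.67 and 0.48, Akr1e1 by 0.46 and 0.49, and Akr1c12 by 0.39 and 0.36, and all 8 values passed the test. Akr1c19 was the reductase that fell, by 0.75 on the log2 scale in wild-type (SE 0.13, adjusted p = 0.00119) and by 0.30 in libraries labelled PPARG KO (SE 0.11, adjusted p = 0.047), where the call was lost without any PPARG KO library other than replicate 2 at 5 months (adjusted p from 0.0829 to 0.141).

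Akr1b3 rose 2.07-fold in wild-type (log2 fold change 1.05 ± 0.18 (SE), adjusted p = 0.00107) and 1.36-fold in libraries labelled PPARG KO (log2 fold change 0.44 ± 0.14 (SE), adjusted p = 0.0256). The second call was lost without PPARG KO replicate 1 or 2 of either time (adjusted p from 0.0582 to 0.0872). Akr1b10 rose in wild-type (log2 fold change 0.86 ± 0.23 (SE), adjusted p = 0.0121), lost without wild-type replicate 2 at 5 months (adjusted p = 0.0609), and did not pass the test in the other genotype (log2 fold change 0.21 ± 0.27 (SE), adjusted p = 0.564). Akr1c6 likewise passed the test in wild-type (log2 fold change 0.52 ± 0.13 (SE), adjusted p = 0.00628) and not in libraries labelled PPARG KO (log2 fold change 0.16 ± 0.07 (SE), adjusted p = 0.092). The test of the difference in change between the genotypes gave adjusted p = 0.438 for Akr1b10 and 0.27 for Akr1c6. The 6 macrophage markers all rose with time in wild-type, and in libraries labelled PPARG KO 1 rose and 1 fell. Their part in the Akr1b values was not tested.

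Among the other families, Adh5, Aldh16a1, Aldh1a7, Aldh1b1 and Aldh3b1 rose in both genotypes. Adh5 rose by 0.43 and 0.42 on the log2 scale (adjusted p = 0.0031 and 0.000262), Aldh16a1 by 0.48 and 0.48, and Aldh1a7 by 0.43 and 0.74 (adjusted p = 0.00428 and 6.97e-06). Aldh3b1 had the highest rise of the members tested, 2.28-fold in wild-type (log2 fold change 1.19 ± 0.22 (SE), adjusted p = 0.00124) and 2.89-fold in libraries labelled PPARG KO (log2 fold change 1.53 ± 0.24 (SE), adjusted p = 0.000446), from levels of 1.37 to 4.01 CPM at 2 months to 5.12 to 10.1 CPM at 5 months. Aldh1b1 rose by 0.38 and 0.52 (adjusted p = 0.00872 and 0.0433), both short of the threshold with library size alone (adjusted p = 0.0544 and 0.0668), and the call in libraries labelled PPARG KO was lost without any of them except replicate 2 at 2 months (adjusted p from 0.0714 to 0.124).

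Aldh5a1 and Aldh3a2 fell in both genotypes. Aldh5a1 fell 1.47-fold in wild-type (log2 fold change -0.55 ± 0.07 (SE), adjusted p = 0.000136) and 1.21-fold in libraries labelled PPARG KO (log2 fold change -0.27 ± 0.07 (SE), adjusted p = 0.0116), the latter lost without PPARG KO replicate 1 at 5 months (adjusted p = 0.0579). Of the exon bases of Aldh5a1, 14.1% overlap a gene on the opposite strand. Aldh3a2 fell in wild-type (log2 fold change -0.37 ± 0.12 (SE), adjusted p = 0.0239), where the libraries of the 2 times overlapped and the call was lost without wild-type replicate 2 or 3 of either time (adjusted p from 0.0816 to 0.121). In libraries labelled PPARG KO it fell without overlap (log2 fold change -0.20 ± 0.06 (SE), adjusted p = 0.021), lost without replicate 1 at 2 months or replicate 2 or 3 at 5 months (adjusted p from 0.0590 to 0.092).

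Over time, Adh1, Adh7, Aldh1a1, Aldh2, Aldh4a1 and Aldh6a1 passed the test in libraries labelled PPARG KO and not in wild-type. Adh7 fell 2.38-fold there (log2 fold change -1.25 ± 0.08 (SE), adjusted p = 1.5e-06), against -0.48 ± 0.17 on the log2 scale in wild-type (adjusted p = 0.0504), a value at the threshold that passed it in DESeq2 (adjusted p = 0.0249) and without wild-type replicate 1 (adjusted p = 0.0414) or 2 (adjusted p = 0.0168) at 2 months. Adh1 rose by 0.26 on the log2 scale (adjusted p = 0.0115), Aldh1a1 by 0.45 (adjusted p = 0.00286) and Aldh2 by 0.28 (adjusted p = 0.00438). Aldh4a1 and Aldh6a1 fell slightly, at -0.21 and -0.19, and both calls were lost without PPARG KO replicate 2 or 3 at 2 months or 1 or 3 at 5 months, and that of Aldh6a1 also without replicate 2 at 5 months (adjusted p from 0.0509 to 0.127 over these libraries and both genes). In wild-type the log2 changes of Adh1, Aldh1a1, Aldh2, Aldh4a1 and Aldh6a1 were -0.07, 0.18, 0.15, -0.03 and -0.10, without a call. In the same order, the test of the difference in change between the genotypes gave adjusted p = 0.176, 0.416, 0.696, 0.602 and 0.808. Adh4 was called higher over time in wild-type without replicate 1 at 2 months (adjusted p = 0.0125), and lower in libraries labelled PPARG KO without replicate 3 at 2 months (adjusted p = 0.0465) or replicate 1 at 5 months (adjusted p = 0.0486). Aldh18a1 and Aldh1l2 were called higher in wild-type without replicate 3 at 2 months (adjusted p = 0.0181) and without replicate 1 at 5 months (adjusted p = 0.0193), respectively. With all libraries, no member was called in opposite directions in the genotypes.

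**Figure D5:**
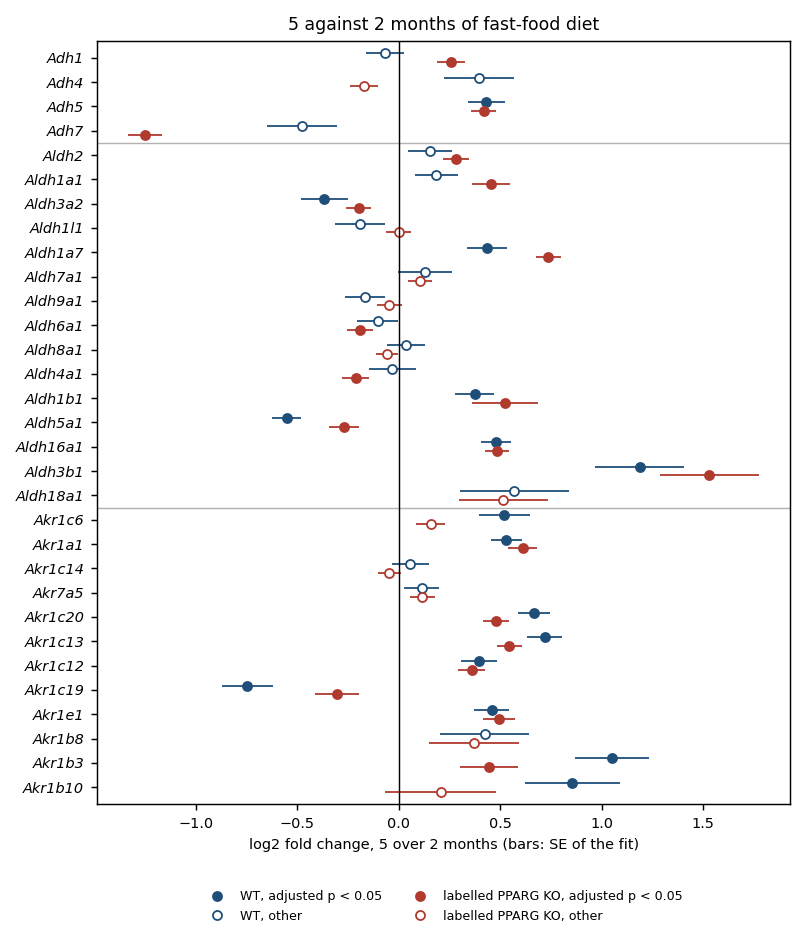
Log2 fold change of 5 over 2 months of FFD for the 31 members tested in every comparison, in wild-type (blue) and in libraries labelled PPARG KO (red), by family, with bars for the standard error of the fit and filled points for an adjusted p below 0.05. Most Akr genes lie to the right of 0 in both genotypes, and Adh7 in libraries labelled PPARG KO lies furthest to the left, at -1.25.

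The difference between the genotype effects at 5 and 2 months was tested in all 12 libraries together. None of the 34 members tested passed the edgeR threshold, against 1.57% of 15127 genes, while 8 members had an unadjusted p below 0.05 (Adh1, Adh4, Adh7, Akr1b3, Akr1c6, Akr1c19, Aldh1a7 and Aldh5a1), as did 14.9% of all genes. Adh7 was the nearest to the threshold, with an effect lower at 5 than at 2 months by -0.77 ± 0.21 (SE, log2, adjusted p = 0.0879). With the replicate numbers as a block it passed (adjusted p = 0.0200), as it did in DESeq2 (adjusted p = 0.0183), without a filter on low counts (adjusted p = 2.94e-06) and without wild-type replicate 3 at 2 months (adjusted p = 0.0025). Leaving out any other library gave adjusted p from 0.104 to 0.204. For Adh4 the difference was -0.57 ± 0.20 (adjusted p = 0.198), and it passed without wild-type replicate 1 at 2 months (adjusted p = 0.0305).

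Genes that act on the same substrates were counted in separate lists. The retinoid list also held the retinoic acid receptor genes Rara, Rarb and Rarg. Of 27 tested genes of that list, 4 were higher and none lower in libraries labelled PPARG KO at 2 months (median log2 fold change 0.02), and 6 were higher and 2 lower at 5 months (median 0.15). Rara was among the 6 higher at 5 months (adjusted p = 0.0409), and Rdh9 was 1 of the 2 lower (log2 fold change -0.50, adjusted p = 0.0181). Cyp26a1, which breaks down retinoic acid, rose at both times, from 22.1 ± 0.464 to 38.7 ± 7.69 CPM (SD, n = 3) at 2 months (log2 fold change 0.81, adjusted p = 0.0177) and from 31.3 ± 2.66 to 56.1 ± 8.4 CPM at 5 months (0.85, adjusted p = 0.000426). Rdh16f2, a microsomal retinol dehydrogenase, rose at both times as well, by 1.61 (adjusted p = 0.0188) and 0.91 (adjusted p = 0.0038) on the log2 scale. Rdh5, another retinol dehydrogenase, rose by 0.53 (adjusted p = 0.0301) and 0.43 (adjusted p = 0.0126). Dhrs3, a retinal reductase, was higher at 2 months by 0.33 (adjusted p = 0.039), and Rdh11 at 5 months by 0.91 (adjusted p = 0.0015). Dhrs9 stood at 2.27 CPM in wild-type and 2.30 CPM in libraries labelled PPARG KO at 2 months. At 5 months it was lower in the latter, at 10.2 ± 1.96 against 20.4 ± 0.844 CPM in wild-type (log2 fold change -0.99, adjusted p = 0.000177). The macrophage marker values are given above, and their part was not tested.

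Of 37 tested genes for other alcohol, aldehyde and carbonyl enzymes, 3 were higher and none lower at 2 months (median log2 fold change -0.04), and of 36 at 5 months 11 were higher and 2 lower (median 0.18). Khk, which phosphorylates fructose, rose from 504 ± 17.6 to 675 ± 79.3 CPM at 2 months (log2 fold change 0.42, adjusted p = 0.0479) and from 735 ± 12.7 to 1025 ± 92.9 CPM at 5 months (0.49, adjusted p = 0.000876). Nqo2, a quinone reductase, rose by 0.35 (adjusted p = 0.0461) and 0.31 (adjusted p = 0.00337). At 5 months Pipox, of pipecolate oxidation, and Dhtkd1, of lysine breakdown, rose by 0.50 (adjusted p = 0.000116) and 0.47 (adjusted p = 0.000236), and Hsd17b10 and Aox3, an aldehyde oxidase, fell by 0.36 (adjusted p = 0.00207) and 0.48 (adjusted p = 0.00564). The backgrounds of 3.56% and 18.4% of genes called at 2 and 5 months apply to these lists too.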

How the data were processed

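RNA of 12 mouse livers was sequenced by Novogene on an Illumina NovaSeq. The authors deposited, for each library, whole-number read counts per gene for 54532 genes, not normalized, with gene coordinates and length. The paper names STAR as the aligner and the submitters' processing notes name HISAT2, with the build mm10. The counting program, annotation and strand setting are not given in the sources used here, so reads of overlapping or near-identical genes may be divided either way.

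Members and gene lists were chosen with earlier results of these data known, and named genes follow a rule: each member with an adjusted p below 0.05 in any comparison or defining its family in liver, and up to 6 genes per related list by smallest p. Rara and Rdh9 of the retinoid list are given values outside this rule. Groups came from the sample titles. Genes were filtered with filterByExpr, libraries were scaled by TMM, and edgeR's robust quasi-likelihood F-test (two-sided) was fitted over all genes for each comparison, with Benjamini-Hochberg adjustment over all genes and a threshold of 0.05. Genotypes and times were compared in fits of 6 libraries and the difference of genotype effects in a fit of 12. A fold change is given with the standard error of the fit, and a 95% interval is the estimate with a normal margin of that error. This margin is narrower than that of the F-test, so an interval can leave out 0 where the unadjusted p is above 0.05. Adh5 at 2 months, for example, had an interval of 0.02 to 0.36 and an unadjusted F-test p of 0.0508. Normalized CPM were computed from TMM-scaled totals of all 12 libraries, and RPKM from them and the deposited gene length. The work was done in R 4.3.3 with edgeR 4.0.16 and, for an alternative test, DESeq2 1.42.0. The fit was tested at the threshold of 0.05 on simulated data where 200 genes were changed by 1.5 on the log2 scale. Most changes reported here were smaller, and recovery of smaller changes was not measured. False calls made up 6.09% to 7.03% of calls in the comparisons of 2 groups. For the difference of genotype effects they made up 2.67%. There, 146 of 200 changed genes were recovered, below the bound first set, which was then lowered. Coordinates of 40 of 43 members equalled GENCODE vM21, used for overlaps and for shared 100-base stretches, and 34 members had a RefSeq start, which gave the upstream sequences. The motifs given were kept after a first look at more.

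Replicates differed by a chi-square of 2.38 to 30.6 per gene, where counting error alone gives a value near 1. No count file was therefore a repeat of another. The lowest value was that of wild-type replicates 2 and 3 at 5 months, and every other pair was at 8.79 or more. Whether these 2 libraries came from separate animals cannot be told from the counts. Wild-type replicate 1 lay farther from the other wild-type libraries than these did from each other at both times. Nothing says how the RNA of replicates was kept apart, so p-values measure the spread between these samples. Same-numbered libraries of both genotypes correlated at 0.22, 0.324 and 0.14 at 2 months after group means were removed over the 5000 most abundant genes. Libraries of unlike number correlated at -0.274 to 0.114 at that time. At 5 months the same-numbered libraries correlated at -0.0779, -0.0603 and -0.179. The labels state no pairing and these values do not establish one, so the block was used only as an alternative. Alternatives were library size alone, DESeq2 size factors, DESeq2, no count filter, at least 10 counts in every library, an unadjusted p with 1.3-fold change, a replicate block, 1 fit of all 12 libraries and leaving out each library.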

Additional observations from a re-analysis of the deposited data

How the results depend on the processing

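No member that was called changed direction under any alternative tried. Of 84 values of the 6 members called at 2 months, 66 kept their side of the threshold, of 182 values of the 13 called at 5 months 145 did, of 208 over time in wild-type 200 did and of 260 over time in libraries labelled PPARG KO 220 did. Leaving out 1 library gave 2 to 12 members at 2 months (main 6), 6 to 20 at 5 months (main 13), 14 to 18 over time in wild-type (main 16), 15 to 17 over time in libraries labelled PPARG KO (main 20) and 0 to 1 for the difference of genotype effects (main 0). Over all genes, the fits over time with a library left out called 5357 to 6968 in wild-type (main 6725). In libraries labelled PPARG KO they called 5374 to 6024 (main 6502). An unadjusted p with a 1.3-fold change gave 13 members over time in libraries labelled PPARG KO, and it gave 4 for the difference of genotype effects, no count filter 4 and DESeq2 1; the causes were not tested.

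With the replicate block, 6 members were called at 2 months, all shared with the fit without it, 12 at 5 months, of which 11 were shared, and 1 for the difference of genotype effects, Adh7. At 5 months, where same-numbered libraries correlated below 0, the block lost Akr1c20 (adjusted p = 0.0571) and Aldh1b1 (adjusted p = 0.071) and gained Adh4 (adjusted p = 0.04).

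Over all genes, 519 were called at 2 months, 988 with DESeq2, 1562 with no count filter, 1608 by unadjusted p with 1.3-fold change, 817 with the block, 1153 in the fit of 12 libraries and 117 to 1577 with a library left out. At 5 months 2602 were called, and 1593 to 3078 with a library left out. For the difference of genotype effects 238 were called, 594 with DESeq2, 793 with no filter, 1563 by unadjusted p with 1.3-fold change and 83 to 567 with a library left out. Library size alone put the median log2 fold change of all genes at -0.0824 at 2 months (TMM: -0.00483) and -0.073 at 5 months (TMM: -0.00577). A limit of detection for small differences was not measured, and 9 members with few counts were tested in no comparison.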
